A study of Mus musculus with 6 samples.

Results

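Complement genes were examined in bone marrow-derived dendritic cells (BMDCs) of wild-type (WT) mice and of mice lacking Nfkb2, which encodes the NF-κB precursor p100. The 8 genes, taken by name, were C1qa, C1qb and C1qc (the chains of C1q), C3, Cfb (factor B), Cfp (properdin), C3ar1 and C5ar1 (the anaphylatoxin receptors). They were 8 of the 56748 genes in the count files, and all 8 were among the 21849 genes tested, which had a name and a summed count of 50 or more. Both genotypes were on the C57BL/6 background, and the knockout was global, so every cell of the culture lacked the gene. Bone marrow cells were grown for 5 days in GM-CSF at 20 ng/mL and then for 4 days in GM-CSF with IL-4 at 10 ng/mL, 9 days in all. The non-adherent cells were taken without further stimulation and without a sort, and polyadenylated RNA was sequenced from 3 WT and 3 Nfkb2-/- cultures. The study calls them independent biological replicates, but the labels do not say whether each came from its own mouse, so the p-values measure the spread between these libraries.

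The complement system is a protein cascade that tags and lyses targets and calls in phagocytes. C1q starts the classical pathway by binding antibody or other ligands, collectins and ficolins start the lectin pathway, and the alternative pathway amplifies both through a C3 convertase that contains factor B and is stabilised by properdin. Cleavage of C3 and C5 releases the peptides C3a and C5a, which act on C3ar1 and C5ar1. Most circulating complement proteins come from the liver, whereas C1q and properdin are made largely by myeloid cells, with C1q a common product of macrophages and of some dendritic cells.

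None of the 8 genes passed the test between the genotypes (edgeR quasi-likelihood, Benjamini-Hochberg adjusted p under 0.05 over all genes tested and fold change over 1.2), where 248 genes, 1.14% of those tested, did. Of the 8, only Cfp had an unadjusted p under 0.05, as did 3730 of all genes tested. For Cfp, all 3 Nfkb2-/- libraries lay above all 3 WT libraries, with a fitted difference of 2.70-fold. C5ar1 was 2.99-fold lower in the fit, but 1 WT library lay below every knockout library. The C1q chains and C3 had similar means in both genotypes. WT replicate 3 was the lowest of the 6 libraries for 7 of the 8 genes, and leaving it out moved most of the estimates.

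The libraries held between 29863927 and 55623068 counts, so that 3 counts, taken as the floor, corresponded to between 0.0561 and 0.103 CPM (counts scaled to a common library size, after TMM normalisation). Of the 8 genes only Cfb lay below 1 CPM in every library. Nfkb2 itself was at 215, 154 and 355 CPM in WT replicates 1 to 3 and at 44.8, 32.3 and 32.6 CPM in the knockouts (log2 fold change -2.72 ± 0.33 (SE), edgeR adjusted p = 0.0307). The residual counts were not assigned to exons, and the labels do not give the deleted part of the gene. WT replicate 3 stood apart in cell type markers too. Its 18 macrophage markers summed to 171 CPM, against 1014 and 1089 CPM in the other WT libraries and between 601 and 748 CPM in the knockouts, and 13 of the 16 tested members were lowest in it. Timd4, a marker of resident macrophages, was at 0 in at least 3 libraries. The 5 monocyte markers, all lowest in WT replicate 3, summed to 86.5 CPM there and to between 488 and 927 CPM elsewhere. Markers of mature dendritic cells went the other way, at 17222 CPM in WT replicate 3 and between 8073 and 11901 CPM in the rest, with none of 7 lowest there. Ccl22 made up most of that sum, at 10727.5 CPM in WT replicate 3, and Ccr2 most of the monocyte sum, at 75.3 CPM there. Dendritic cell markers summed to between 6017 and 11307 CPM, neutrophil markers to between 85.5 and 243 CPM and mast cell markers to between 45.3 and 54.8 CPM, while B and T cell markers stayed under 4 CPM in each library. Single markers within these sums differed by genotype. Cpa3, a mast cell marker, was called lower in the knockouts (edgeR adjusted p = 0.0413). No neutrophil marker was called, but in the fit Cxcr2 was 14.1-fold higher and Ngp 3.50-fold lower in the knockouts. In bulk RNA, fewer cells of a type and less RNA per cell cannot be told apart.

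All 3 C1q genes lie on the minus strand of chromosome 4 within 18675 bases (GRCm38, chr4:136880129-136898803), in the order C1qb, C1qc, C1qa. The RefSeq promoter table (GRCm38.p6) had entries for 6 of the 8 genes, and C1qa and Cfb had none. The 250 bases before the RefSeq start are shown for C1qb, as a gene of the cluster, for Cfp, whose groups did not overlap, and for C3, the central component. Since p100 and its product p52 are NF-κB subunits, letters of the κB form GGGNNNNNCC, searched on both strands (reverse complement GGNNNNNCCC), are in capitals, and overlapping matches are merged into one run.
C1qb, chr4:136886201-136886450, minus strand: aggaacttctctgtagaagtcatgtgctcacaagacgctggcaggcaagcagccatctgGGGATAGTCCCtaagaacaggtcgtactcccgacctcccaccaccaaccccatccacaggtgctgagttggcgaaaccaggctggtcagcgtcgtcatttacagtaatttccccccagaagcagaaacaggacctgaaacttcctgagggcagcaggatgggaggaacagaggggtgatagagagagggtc
Cfp, chrX:20931556-20931805, minus strand: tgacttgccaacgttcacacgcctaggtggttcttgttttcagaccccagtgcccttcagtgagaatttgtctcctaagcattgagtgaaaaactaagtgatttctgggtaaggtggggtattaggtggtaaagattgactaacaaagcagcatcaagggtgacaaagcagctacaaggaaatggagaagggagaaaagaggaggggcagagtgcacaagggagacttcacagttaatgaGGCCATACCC
C3, chr17:57228137-57228386, minus strand: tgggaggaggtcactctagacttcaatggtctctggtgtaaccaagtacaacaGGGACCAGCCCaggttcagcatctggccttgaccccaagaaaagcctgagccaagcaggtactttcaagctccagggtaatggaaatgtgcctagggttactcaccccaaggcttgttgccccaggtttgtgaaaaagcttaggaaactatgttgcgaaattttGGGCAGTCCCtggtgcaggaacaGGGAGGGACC
The C1qb window held 1 such stretch, of 11 bases, the C3 window 3 and the Cfp window 1, which ended at the start site. C1qc and C3ar1 held 1 stretch each and C5ar1 none, so that 5 of 6 windows had a match, against 45.4% of 27025 promoter windows of this length. The letters GAGGAA (reverse complement TTCCTC), found in sites of the ETS factor PU.1, were in the windows of C1qb and C1qc, 2 of 6, against 23.1% of all windows. For C1qc, C5ar1 and C3ar1 the RefSeq start lay inside the gene span of the GENCODE annotation, so their windows overlapped annotated gene sequence. A match is a string of letters and not a measured binding site.

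Per kilobase of exon, the only scale on which levels of different genes were compared, C1qb and Cfp were the most abundant of the 8, with medians over the 6 libraries of 121 and 106 CPM per kilobase. C3ar1 (22.6), C3 (21.8), C1qc (20.6) and C1qa (16.6 CPM per kilobase) followed, and their ranges across libraries overlapped. C5ar1 was lower, at 2.43 CPM per kilobase, and Cfb lowest, at 0.135. In the 3 WT libraries C1qb lay above Cfp in each, at 150, 197 and 20.97 against 59.0, 83.1 and 14.4 CPM per kilobase. In the knockouts the order was turned in each library, with Cfp at 129, 146 and 148 and C1qb at 106, 98.0 and 136 CPM per kilobase.

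**Figure D1:**
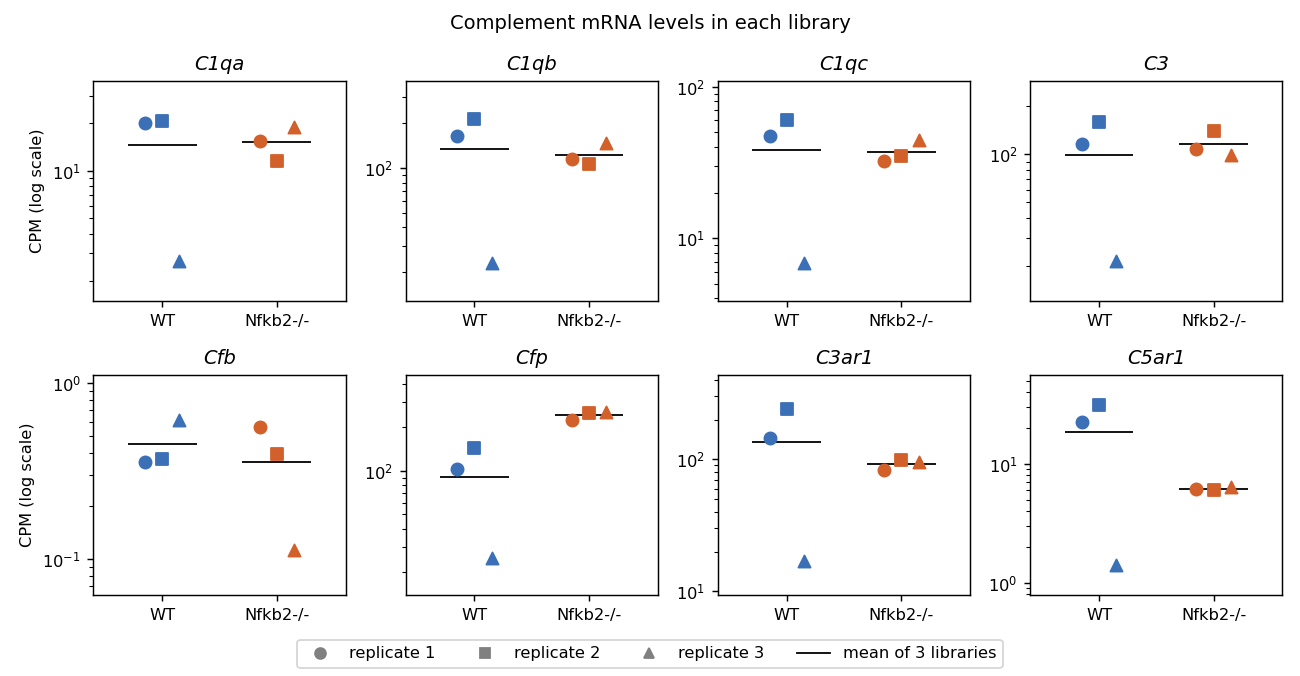
CPM (log axis, a separate range in each panel) of the 8 complement genes in the 3 WT and 3 Nfkb2-/- libraries, one symbol per replicate, with a line at the mean of each genotype. WT replicate 3 (blue triangle) is the lowest point in every panel but that of Cfb, and only Cfp has all knockout points above all WT points.

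The mRNAs of the initiating molecule of the classical pathway were present in all libraries. C1qb, the B chain, was at 164, 215 and 22.8 CPM in WT replicates 1 to 3 and at 115, 107 and 148 CPM in the Nfkb2-/- libraries. WT replicates 1 and 2 lay above and WT replicate 3 below the whole knockout group, which itself spanned a narrow range. The means were 134 ± 99.3 (SD, n = 3) in WT and 123 ± 22.1 CPM in the knockouts (log2 fold change -0.12 ± 0.66 (SE), edgeR adjusted p = 0.946). C1qc, the C chain, was at 47.4, 60.5 and 6.88 CPM in WT and at 32.1, 35.0 and 44.7 CPM in the knockouts. Its order of libraries was close to that of C1qb, with the same WT library far below the rest (log2 fold change -0.04 ± 0.65, edgeR adjusted p = 0.982). C1qa, the A chain, was at 20.2, 20.6 and 2.68 CPM in WT and at 15.5, 11.5 and 19.0 CPM in the knockouts, again with 1 low WT library (log2 fold change 0.08 ± 0.64, edgeR adjusted p = 0.964). The 95% intervals of the log2 fold changes ran from -1.43 to 1.58 for C1qa, from -1.67 to 1.44 for C1qb and from -1.55 to 1.47 for C1qc, so changes of over 2-fold in either direction could not be told from none.

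The 3 chains, which assemble into one protein, kept near-constant proportions while their sum ranged widely. Summed C1q was 231, 296 and 32.4 CPM in WT and 162, 153 and 212 CPM in the knockouts. Within a library, C1qa was between 0.0962 and 0.135 of C1qb and C1qc between 0.279 and 0.328 of C1qb, with WT replicate 3 inside both ranges. Summed C1q per summed macrophage marker was between 0.189 and 0.284 and overlapped between the genotypes. These ratios and those below were chosen after the values had been seen and carry no test.

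C3, the component on which the pathways converge, was at 116, 160 and 21.6 CPM in WT and at 108, 140 and 98.8 CPM in the knockouts. The knockout libraries lay inside the WT range, and WT replicate 3 was again lowest. The means were 99.2 ± 70.6 and 116 ± 22.0 CPM (SD, n = 3 each), with a log2 fold change of 0.22 ± 0.60 (SE, 95% interval -1.19 to 1.63, edgeR adjusted p = 0.885). C3 lies on chromosome 17 (GRCm38, chr17:57203970-57228136) and spans the microRNA gene Mir6978 on its own strand.

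Cfb, the serine protease subunit of the alternative pathway convertase, was scarce in these unstimulated cells. It had 15, 12 and 18 counts in WT and 19, 12 and 6 counts in the knockouts, or 0.356, 0.369 and 0.619 against 0.561, 0.396 and 0.112 CPM. It was the one gene of the 8 that was not lowest in WT replicate 3, where it had its highest level. No genotype difference was detectable at this depth (log2 fold change -0.34 ± 0.80 (SE), 95% interval -2.21 to 1.54, edgeR adjusted p = 0.863). The gene overlaps the protein-coding readthrough gene Gm20547 on the same strand, so the assignment of these few counts is uncertain.

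Cfp encodes properdin, the positive regulator that stabilises the alternative pathway convertase, and lies on the X chromosome (GRCm38, chrX:20925454-20931555, minus strand). It was at 102, 144 and 24.9 CPM in WT replicates 1 to 3 and at 224, 253 and 257 CPM in the Nfkb2-/- libraries. Every knockout library lay above every WT library, and the knockouts were close to each other whereas WT replicate 3 lay far below the other WT libraries. The means were 90.5 ± 60.5 and 245 ± 18.0 CPM (SD, n = 3 each). The log2 fold change was 1.43 ± 0.54 (SE, 95% interval 0.17 to 2.70), with an unadjusted p of 0.0315 and an adjusted p of 0.236 in edgeR's quasi-likelihood test. The two-sided exact permutation test gave p = 0.1, the smallest that 3 against 3 libraries allow. Cfp was the only one of the 8 genes without overlap, while 24.7% of all genes tested had no overlap in either direction and 12.7% lay higher in the knockouts without overlap. The call depended on the tool and on the filter. DESeq2 gave a log2 fold change of 1.42 and an adjusted p of 0.0496, where 8.65% of genes passed. In edgeR without the filter on low counts these were 1.37 and 5.93e-04, where 3.50% passed. Limma voom gave 1.77 and an adjusted p of 0.154, so Cfp did not pass there.

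C3ar1, the receptor for C3a, was at 145, 243 and 16.9 CPM in WT and at 83.3, 98.5 and 96.0 CPM in the knockouts. WT replicates 1 and 2 lay above and WT replicate 3 below the whole knockout group, so the groups overlapped. The means were 135 ± 113 and 92.6 ± 8.12 CPM (SD, n = 3 each), with a log2 fold change of -0.54 ± 0.75 (SE, 95% interval -2.29 to 1.21, edgeR adjusted p = 0.750).

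C5ar1, the signalling receptor for C5a, had the same layout with a wider gap. It was at 22.7, 31.2 and 1.41 CPM in WT and at 6.09, 6.06 and 6.38 CPM in the knockouts. The knockout libraries were nearly equal, WT replicates 1 and 2 were several times higher, and WT replicate 3 was lower than all of them. The means were 18.5 ± 15.4 and 6.18 ± 0.176 CPM (SD, n = 3 each), with a log2 fold change of -1.58 ± 0.85 (SE, 95% interval -3.58 to 0.42, edgeR adjusted p = 0.406). Without the filter on low counts the fitted log2 fold change was -1.66 ± 0.29 (SE) and the edgeR adjusted p 1.54e-06. The estimate thus moved little, while its standard error fell from 0.85 to 0.29 on the same counts. In that fit 2 of the 8 genes, Cfp and C5ar1, passed, beside 3.50% of 46410 genes.

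The share of genes with their lowest level in WT replicate 3 was 25.0% of all genes tested, and 25.9% of the 15316 genes averaging 1 CPM or more. Against that share, 7 of 8 complement genes were lowest there. The mean of WT replicates 1 and 2 exceeded WT replicate 3 by 4.95-fold for Cfp, 6.38-fold for C3, between 7.61-fold and 8.29-fold for the C1q chains, 11.5-fold for C3ar1 and 19.1-fold for C5ar1. The macrophage and monocyte markers were lowest in the same library, and their part in the complement values was not tested. Mrc1, Csf1r, Adgre1, Cd68 and Mertk took the most counts of the macrophage markers.

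**Figure D2:**
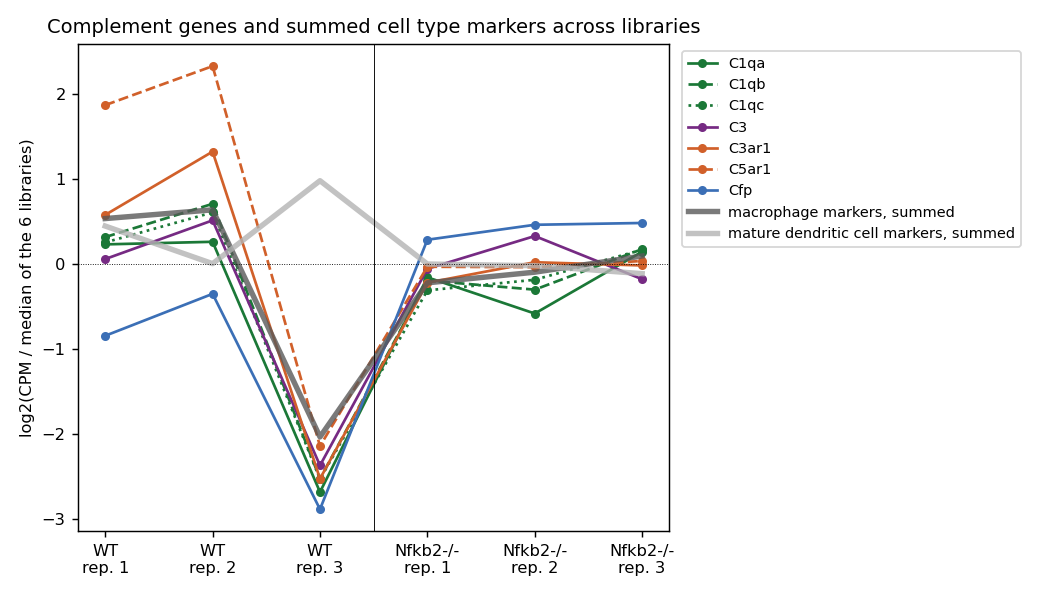
Level of 7 complement genes (thin lines) and of summed macrophage and mature dendritic cell markers (thick grey lines) in each library, as log2 of CPM over the median of the 6 libraries; lines only join the points of one gene or list. In WT replicate 3 the 7 genes and the macrophage markers drop together while the mature dendritic cell markers are at their highest, and C5ar1 and C3ar1 lie above their medians in WT replicates 1 and 2.

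With WT replicate 3 left out, a choice made after its values had been seen for the count of genes without overlap, 6 of the 8 genes did not overlap between the genotypes: the C1q chains, C3ar1 and C5ar1 lay lower in the knockouts, and Cfp, which had no overlap with all libraries either, lay higher. The share over all genes was 35.0% in that comparison. C5ar1 alone passed the test, with a log2 fold change of -2.12 ± 0.18 (SE), 4.35-fold lower, and an edgeR adjusted p of 0.0180, where 1.27% of 21341 genes passed. Cfp was 1.99-fold higher (log2 fold change 0.99 ± 0.19, edgeR adjusted p = 0.0728) and C3ar1 2.09-fold lower (log2 fold change -1.06 ± 0.23, edgeR adjusted p = 0.0942), and neither passed. The C1q chains were at log2 fold changes between -0.61 and -0.41, with edgeR adjusted p between 0.210 and 0.456. C3 turned from 0.22 to -0.25 (edgeR adjusted p = 0.638). This comparison rests on 2 WT libraries.

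**Figure D3:**
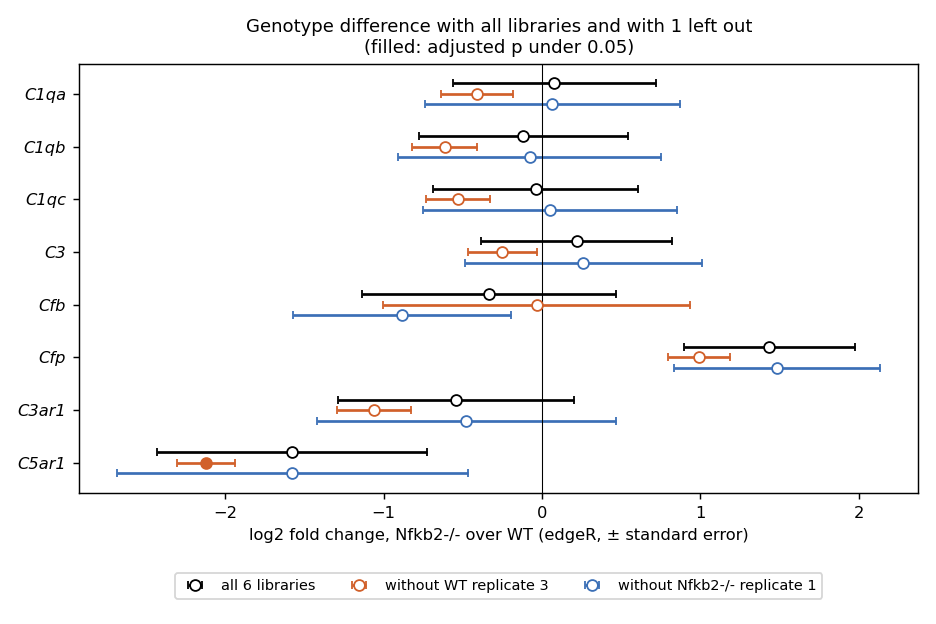
Log2 fold change of each complement gene (Nfkb2-/- over WT, edgeR, bars are ± 1 standard error) with all 6 libraries, without WT replicate 3 and without Nfkb2-/- replicate 1; filled points have an adjusted p under 0.05. Leaving out WT replicate 3 shortens the bars for all genes but Cfb, moves C5ar1 to -2.12, the only filled point, and moves Cfp down to 0.99.

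Properdin and the C5a receptor were also set against C1q and the macrophage markers within each library. Cfp per summed C1q was 0.443, 0.488 and 0.769 in WT and 1.38, 1.65 and 1.21 in the knockouts. The knockouts lay above WT in every library, by 2.50-fold in the means. C5ar1 per summed C1q was 0.0983, 0.106 and 0.0436 in WT and 0.0375, 0.0396 and 0.0301 in the knockouts, lower in every knockout library and by 2.31-fold in the means, although WT replicate 3 lay near the knockouts. Against the summed macrophage markers, Cfp was at 0.101, 0.132 and 0.146 in WT and at 0.373, 0.386 and 0.344 in the knockouts. That ratio did not overlap and was 2.91-fold higher in the knockouts, whereas C5ar1 per macrophage marker overlapped between the genotypes. C3 and C3ar1 per summed C1q overlapped as well. The macrophage markers were not a fixed reference. None of the 16 tested was called, but their median log2 fold change was -0.36. Apoe was 37.0-fold lower in the knockouts in the fit (edgeR adjusted p = 0.0770), and Fcgr1 1.96-fold higher (edgeR adjusted p = 0.494). The ratio of Cfp to C5ar1 was 4.51, 4.62 and 17.7 in WT and 36.8, 41.8 and 40.3 in the knockouts.

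**Figure D4:**
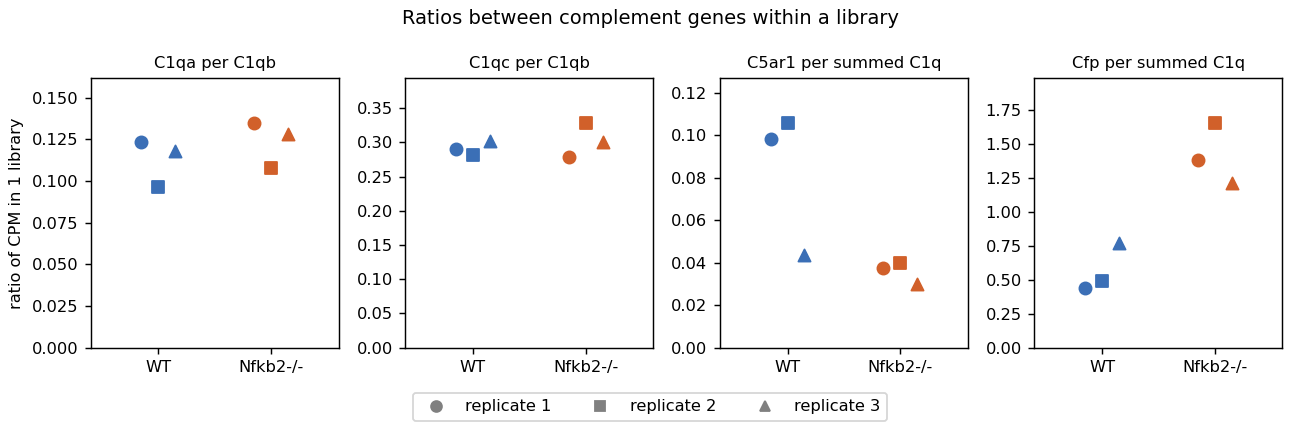
Ratios of CPM within a library (linear axes from 0), one symbol per replicate. The C1q chains keep similar proportions in all 6 libraries, C5ar1 per summed C1q lies between 0.0301 and 0.0396 in the knockouts and from 0.0436 upward in WT, and Cfp per summed C1q lies from 1.21 upward in the knockouts and up to 0.769 in WT.

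The genes most like each member in pattern were found by Pearson correlation of log2 CPM over the 6 libraries, among 10646 genes averaging 5 CPM or more. For C1qb they were C1qc (0.997), Cmklr1 (0.997) and Slc9a9 (0.994), and for C1qc they were Cmklr1 (0.998), C1qb (0.997) and Adam15 (0.996). C1qa was closest to Galnt4 (0.994), Tnfaip8l2 (0.992) and Amz1 (0.989). Galnt4 encodes a glycosyltransferase, and Cmklr1 the receptor for chemerin, a chemoattractant. For C3 the closest were Gm20658 (0.998), Fam20c (0.996) and Nlrp1c-ps (0.995), for C3ar1 Tnfrsf21 (0.998), Sgms2 (0.996) and Mtus1 (0.995), and for C5ar1 Hpse (0.998), Rffl (0.998) and Emp1 (0.997). Cfp was closest to Dcstamp (0.998), which encodes a protein of cell fusion in osteoclasts and macrophages, to Evl (0.997) and to Cyp4f16 (0.997). All of these, like the members, were lowest in WT replicate 3, so the 6 points share 1 extreme library. A correlation of 0.9 or more was reached by 409 genes (3.84%) for C1qb, 206 (1.93%) for C5ar1 and 975 (9.16%) for Cfp. For Cfb, with few counts, the closest were Rab11fip4 (0.991), Tollip (0.981) and Usp49 (0.966). Cfp and C5ar1 were less alike, at 0.453.

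The wider complement list held 54 genes by role, of which 37 were tested, 1 was higher in the knockouts and none was lower by edgeR, beside 1.14% of all genes. At an unadjusted p under 0.05 there were 5, none of them lower, beside 17.1% of all genes tested. The median log2 fold change of the 37 was 0.43, and 0.62 for the 29 that were not among the 8 genes above, against 0.08 over all genes tested. Among genes averaging 1 CPM or more, these medians were 0.08 for 25 genes of the list and 0.30 for the 18 without the 8, against -0.0088 over all genes. The 11 genes left out of the 18 were each highest in Nfkb2-/- replicate 1. The one call was Itgax, which encodes CD11c, the alpha chain of complement receptor 4 and the usual surface marker of dendritic cells. Of the 13 dendritic cell markers it was the only one called, and the median log2 fold change of that list was 0.12. Itgax was at 160, 277 and 123 CPM in WT and at 745, 769 and 716 CPM in the knockouts. The groups were far apart, WT replicate 3 was again lowest, and the log2 fold change was 1.99 ± 0.30 (SE, edgeR adjusted p = 0.0414). The adjusted p was 0.0434 without WT replicate 3, 0.0616 with the replicate numbers as a block, and 0.202 without WT replicate 1. Leaving out any of the knockout libraries also ended the call, with edgeR adjusted p between 0.0900 and 0.200. In each of these fits in which Itgax did not pass, no gene of the whole table was called. In all, 9 of the 37 genes did not overlap, a share close to the 24.7% over all genes tested.

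Among the other receptors, Itgb2, the beta chain that pairs with Itgam and Itgax, was at 332, 400 and 93.2 CPM in WT and at 410, 503 and 461 CPM in the knockouts, without overlap (log2 fold change 0.73 ± 0.47, edgeR adjusted p = 0.477). Itgam, which encodes CD11b, the alpha chain of complement receptor 3, was at 96.1, 160 and 10.3 CPM in WT and between 150 and 162 CPM in the knockouts (edgeR adjusted p = 0.624). Lrp1, a scavenger receptor that takes part in C1q-dependent uptake, was at 434, 354 and 85.1 CPM in WT and at 147, 168 and 165 CPM in the knockouts. Its pattern was that of C5ar1, with WT replicates 1 and 2 high and WT replicate 3 low. Its edgeR adjusted p was 0.446 with all libraries and 0.0348 without WT replicate 3, where the log2 fold change was -1.30. Cr1l, the rodent regulator Crry, was between 87.6 and 96.3 CPM in WT and between 63.5 and 81.6 CPM in the knockouts, without overlap (log2 fold change -0.30 ± 0.15, edgeR adjusted p = 0.372).

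None of the initiators was called, the C1q chains included. C1ra, the protease bound to C1q, was at 3.61, 3.94 and 0.482 CPM in WT and between 1.12 and 2.25 CPM in the knockouts (edgeR adjusted p = 0.630), and so followed the C1q chains in its low WT library. Colec12, a scavenger receptor of the collectin family, was at 22.1, 9.91 and 0.688 CPM in WT and between 3.60 and 4.22 CPM in the knockouts. WT replicates 1 and 2 lay above all knockouts and WT replicate 3 below them (log2 fold change -1.46 ± 0.91, edgeR adjusted p = 0.467, and -2.01 with an adjusted p of 0.0545 without WT replicate 3). The remaining initiators named by the rule, C2, C4a, C4b, Masp1, Masp2 and Fcna, overlapped and did not pass, with edgeR adjusted p of at least 0.471. Masp1, a protease of the lectin pathway, was at 2.95 CPM in Nfkb2-/- replicate 1 and at most 0.369 CPM elsewhere, and C4b, a form of C4, was at 2.45 CPM there and at most 0.213 CPM elsewhere.

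The terminal components, which form the membrane attack complex, were scarce. Hc, which encodes C5, was at 2.42 CPM in Nfkb2-/- replicate 1 and between 0.264 and 0.522 CPM in the rest. C8a was at 0.640, 1.42 and 1.10 CPM in WT and at 2.45, 1.62 and 2.69 CPM in the knockouts, without overlap (edgeR adjusted p = 0.221), and C8g overlapped (edgeR adjusted p = 0.880). C8b and Cfd, the protease factor D, had too few counts to be tested. Nfkb2-/- replicate 1 had at least 1 count on 47952 genes, against between 27692 and 33841 in the other libraries. Of the 12 tested complement genes with a mean under 1 CPM, 11 were highest in that library, as were 15 of the 17 untested ones. The part of this library in those values was not tested. Of the 25 with a mean of at least 1 CPM, 17 were lowest in WT replicate 3.

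Among the regulators, Cd55, which speeds decay of the convertases, was at 0.878, 0.461 and 0.688 CPM in WT and at 2.81, 1.52 and 1.57 CPM in the knockouts, without overlap (log2 fold change 1.53 ± 0.44, edgeR adjusted p = 0.143, and 0.0357 in DESeq2). Clu, an inhibitor of the terminal complex, was at 53.7, 7.94 and 54.3 CPM in WT and between 14.5 and 28.0 CPM in the knockouts, and here WT replicate 2 was the low one (edgeR adjusted p = 0.548). Cd46, a cofactor for C3b cleavage, overlapped (edgeR adjusted p = 0.398), as did Csmd1 (0.710).

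**Figure D5:**
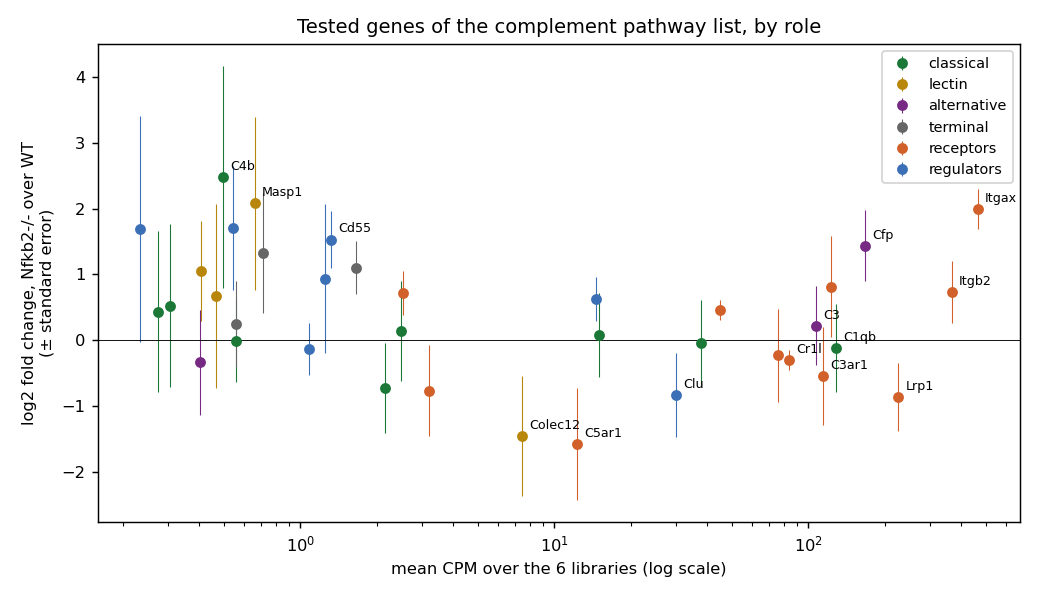
Log2 fold change (± 1 standard error) of the 37 tested genes of the complement list against mean CPM over the 6 libraries (log axis), coloured by role. Itgax is the one gene that passed the test, at 1.99, Cfp lies at 1.43, and Cfi and C4b, both with a mean under 1 CPM, have the longest bars.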

How the data were processed

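RNA-seq was done on 3 WT and 3 Nfkb2-/- BMDC libraries. The authors deposited raw counts of reads per Ensembl gene for each library, and these counts were used as deposited. The submitters' processing notes name HISAT2 and GRCm38 (mm10). The counting tool, annotation and strand setting are not given in the sources used here. A joined table held the same values and was not used. Names came from GENCODE M21 (52073 of 56748 IDs), and counts on IDs without a name, between 1.01% and 1.75% of a library, were left out of the tests.

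Genes with a name and at least 50 counts over the 6 libraries (21849) were fitted with edgeR 4.0.16 (TMM, quasi-likelihood test, Benjamini-Hochberg) in R 4.3.3. A gene was called at an adjusted p under 0.05 and a fold change over 1.2. The study used DESeq2, which served here as an alternative (1.42.0), as did limma voom (3.58.1), other scaling, other filters, the replicate number as a block and each library left out. The fit was also run on simulated counts. These were drawn independently for each gene and library, and so without the shared low values of WT replicate 3. Each member, each called gene of the complement list, up to 4 further genes per role by mean CPM, and the 3 genes closest in pattern to each member (log2 CPM, prior count 2) were named. The members and lists were chosen with earlier results of these data known. Positions and exon lengths are those of GENCODE M21, and promoter windows those of RefSeq GRCm38.p6. CPM are counts per total library count after TMM scaling. Depth was between 29863927 and 55623068 counts.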

Additional observations from a re-analysis of the deposited data

How the results depend on the processing

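With other settings the number of genes called over the whole table moved from 248 to 1890 with DESeq2, 488 with limma voom, 397 with filterByExpr, 459 with at least 10 counts in every library and 1625 with no filter beyond 1 count, and ranged from 0 to 1248 with 1 library left out. Of the 8 complement genes none was called in edgeR (1 at an unadjusted p under 0.05), 1 was called in DESeq2 (Cfp, 1.42), 2 without the filter (Cfp, 1.37, and C5ar1, -1.66), and 0 to 1 with 1 library left out, where the 1 was C5ar1 without WT replicate 3. The wider list had 1 call, 3 in DESeq2, 5 without the filter and 0 to 3 with 1 library left out, where the 3 came without WT replicate 3. The shares called over all genes tested were 1.14% in edgeR, 8.65% in DESeq2, 3.50% without the filter and 1.27% without WT replicate 3. The number of the 8 genes without overlap ranged from 1 to 6, with the 6 from leaving out WT replicate 3. Over all genes tested, 24.7% did not overlap with all libraries and 35.0% without WT replicate 3. The cause of these shifts was not tested.

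Same-numbered WT and Nfkb2-/- libraries deviated from their group means with correlations of 0.262, 0.148 and 0.0224. WT replicate 2 was at 0.164 with Nfkb2-/- replicate 3. Deviations from a mean of 3 libraries depend on each other, so these values cannot decide whether same-numbered libraries belong together. The labels give only the shared number. With the replicate block, no gene was called over the whole table, in the wider list (0) or among the 8 (0) in edgeR, while 3331, 5 and 1 had an unadjusted p under 0.05, and the log2 fold changes of C1qb (0.27), C1qc (0.33), C3ar1 (0.0058), C4a (-0.47) and Fcna (-0.31) changed sign.

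Limma voom turned C1qb (0.39), C1qc (0.42), C3ar1 (0.14), C4a (-0.50), C4b (-0.11), Fcna (-1.85) and Csmd1 (-0.20). C2 turned with total counts (0.11) and with at least 10 counts in every library (0.0056), which left no value for Cfb, and C4a turned without the filter (-0.066). None of these values passed the test. With 1 library left out, log2 fold changes ranged from -0.41 to 0.41 for C1qa, -0.61 to 0.40 for C1qb, -0.53 to 0.45 for C1qc, -0.25 to 0.74 for C3, -0.89 to 0.10 for Cfb, -1.06 to 0.19 for C3ar1 and -2.12 to -0.97 for C5ar1. The sign of each of these but C5ar1 thus changed in at least 1 of these fits. Those of C2 (-0.53 to 0.19), C4a (-1.40 to 0.58), Fcna (-1.03 to 1.27), Hc (-0.33 to 1.74), C8g (-0.081 to 0.70) and Csmd1 (-1.16 to 2.09) crossed 0 too. Cfp stayed between 0.99 and 1.94 over its 14 alternatives. With 3 libraries per genotype, the intervals of the C1q genes took in changes of over 2-fold in either direction.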
